A study of Homo sapiens with 6 samples.

Results

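Integrins and the proteins of focal adhesions were examined as a set of 42 listed genes, chosen by symbol: integrin α and β subunits, and the cytoplasmic proteins that tie them to actin or signal from them. Their rows were found by Ensembl identifier in a table of 59192 features. Of the 42 genes, 31 were matched to a row, and 28 of these had a mean of at least 10 normalized read counts over the 6 libraries and were tested. ITGA4, ITGA11 and ITGB2 had a row but lay below this minimum. The other 11 genes, ITGA1, ITGA7, ITGA8, ITGAE, ITGB3, TLN2, PARVA, PARVB, BCAR1, TNS1 and ACTN1, were not matched to a row by their identifier and were not analysed here. Of all features, 33265 are loci named only by a transcript assembler, and reads of a gene that were counted under such a locus cannot be assigned to it.

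RNA was sequenced from SW480 cells, a line established from a human colorectal adenocarcinoma. Both groups carried Cas9 from a lentivirus, under puromycin selection, and an EGFP vector with a guide RNA. SW480-45 cells, labelled as the HPSE knockdown, received a guide against HPSE, and the control cells, SW480-NC, received a control guide. The study compares SW480-KD1 with SW480-NC by sequencing, and SW480-45 was taken as SW480-KD1. Each group had 3 libraries from independent experiments (n = 3 throughout), but each guide was represented by a single transduced line, so guide and line cannot be told apart.

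Integrins are heterodimers of an α and a β subunit that bind matrix proteins outside the cell. The partners decide the ligand: some dimers bind laminin, others collagen, and others proteins with the RGD motif such as fibronectin, vitronectin and osteopontin. Inside the cell talin and kindlin bind the β tail, and ILK, PINCH, parvin, vinculin, α-actinin, zyxin and tensins join the receptor to actin, while focal adhesion kinase, SRC and paxillin carry its signals. In epithelial cells the dimer of ITGA6 and ITGB4 is instead linked to keratin, at hemidesmosomes.

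HPSE (ENSG00000173083, GRCh38 chr4:83292461-83335153, minus strand), the gene of heparanase, had 136, 172 and 146 normalized counts in the 3 SW480-45 libraries. It had 270, 295 and 246 in the SW480-NC libraries. The groups did not overlap, and the knockdown mean was 56.1% of the control mean. The log2 fold change was −0.83 (SE 0.14), with an adjusted p of 0.0547 by limma. The targeted RNA was thus lower in every library labelled as knockdown, but its test just missed the threshold of 0.05. The study assessed the knockdown by western blot, at the level of protein, which these counts do not measure.

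The libraries held 33221323 to 39802365 reads. Epithelial markers were high in all 6 libraries: the summed normalized count of the 6 markers with a row was 106664 to 115221 in SW480-45 and 121025 to 127973 in SW480-NC. KRT8, EPCAM, KRT19 and VIL1 made up nearly all of it, CDX2 was low, and CDH17 had at most 3 reads in any library. The 5 fibroblast markers with a row summed to 287 to 387 normalized counts in SW480-45 and 231 to 272 in SW480-NC, with COL1A2 at or below 3 reads in each library. The 3 endothelial markers summed to 28.0 to 43.2 and 12.6 to 26.5, with CDH5 at or below 3 reads. Of the leukocyte markers, LYZ was abundant, CD14 was at a mean of 41.8 and 40.2 normalized counts in the 2 groups, and PTPRC and CD3E were not analysed here. The epithelial and LYZ sums were lower and the fibroblast and endothelial sums higher in SW480-45 without overlap, and their part in the results was not tested.

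The listed genes called lower in SW480-45 were all integrin subunits. ITGA6, ITGB4 and ITGAV passed an adjusted p of 0.05 by limma, all of them lower in SW480-45, at 67.0%, 70.4% and 73.4% of the control mean, and no listed gene passed in the other direction. These were 3 of 28 genes tested. The list was chosen with earlier results of these data known, so its shares beside those of all features are a description only. Over all 21703 features tested, 0.470% passed in the lower direction and 0.332% in the higher. At an unadjusted p under 0.05, 8 of the 28 were lower and 5 higher, where 8.15% and 8.10% of all features were. With a p under 0.05 by limma, taken here as unadjusted, and at least a 2-fold change, there was no call among the 28. Over all features 2.42% passed this cut, which follows that of the study. The study applied its cut to Cuffdiff results, so the calls here are not those of the study. Each of the 28 differences was smaller than 2-fold. These are bulk libraries, in which fewer cells of a kind and less RNA per cell cannot be told apart.

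The libraries of the groups did not overlap for 14 of the 28 genes, against 23.4% of all features tested. Below the controls were ITGA6, ITGB4, ITGAV, TNS4, ITGB6, ITGA2, ITGB1, LIMS1 and FERMT1, and above them ITGA5, PXN, ITGA9, PTK2 and TNS3. The median log2 fold change of the 28 genes was −0.11, against −0.00 over all features tested. The integrin subunits and the cytoplasmic proteins differed in this: the 13 subunits tested had a median of −0.26 with 11 below 0, and the 15 other genes had a median of 0.03. The difference between these subgroups was not tested. The plot of log2 fold changes by role shows each gene with its interval.

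**Figure D1:**
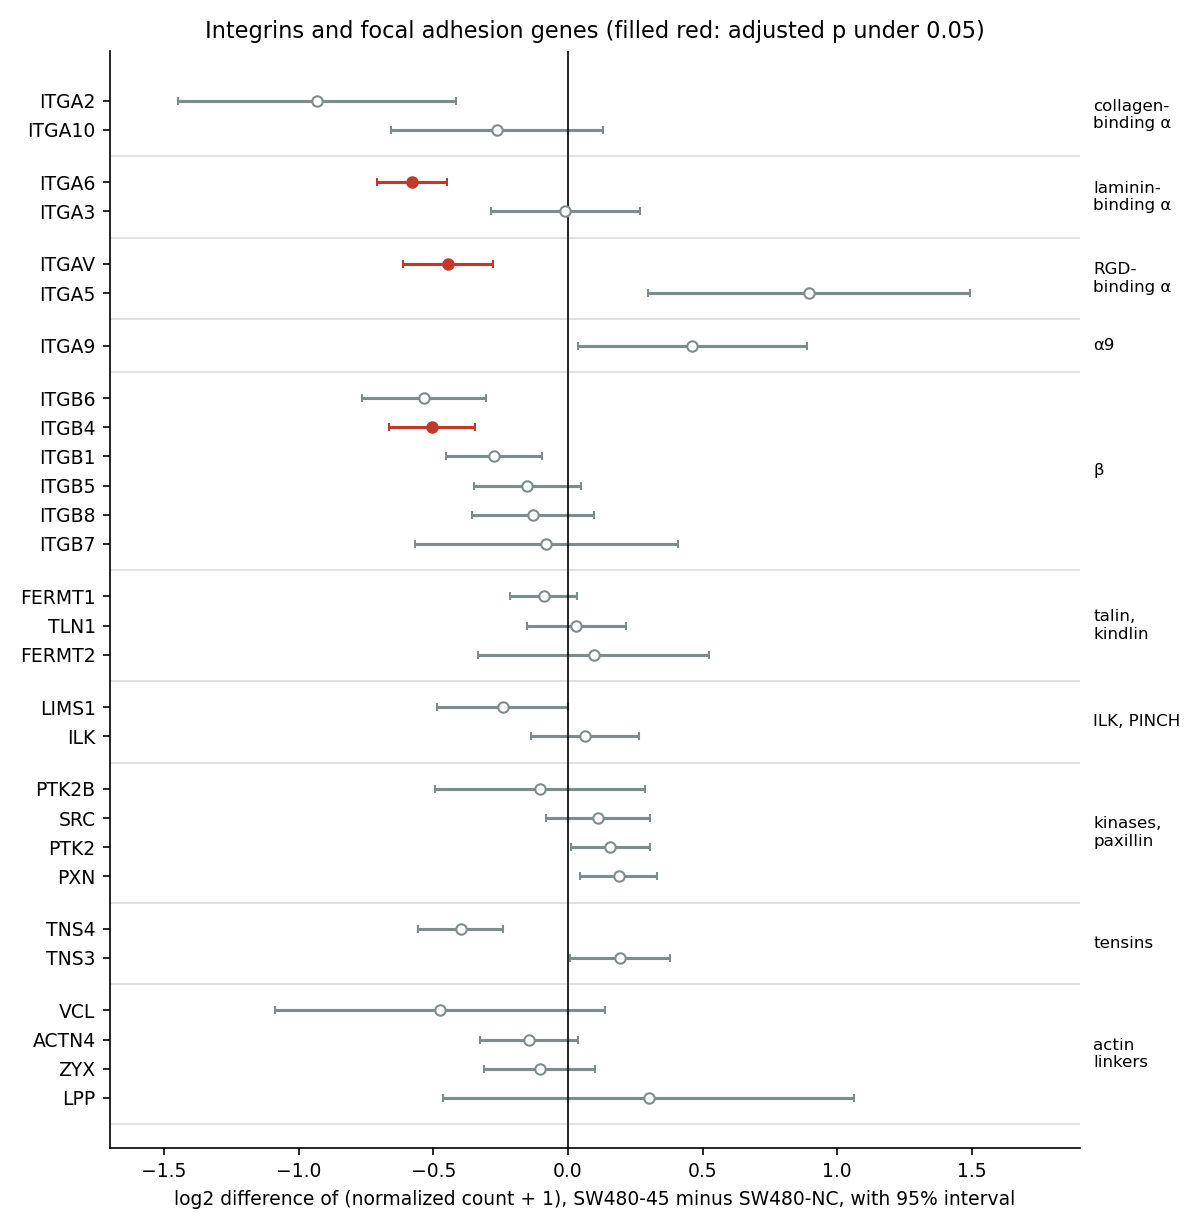
Log2 fold change (SW480-45 minus SW480-NC, log2 of normalized count + 1) of the 28 genes tested, with 95% intervals from limma, grouped by role; filled red points have an adjusted p under 0.05. The red points are ITGA6, ITGAV and ITGB4, at −0.58, −0.45 and −0.51, and the points of the 6 β subunits all lie left of 0.

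ITGA6 (ENSG00000091409, GRCh38 chr2:172427354-172506282, plus strand) encodes the α6 subunit of laminin receptors. It had 13034, 13051 and 13904 normalized counts in SW480-45 and 19952, 20511 and 19260 in SW480-NC. The highest knockdown library lay well below the lowest control library, and the libraries within a group were close, at 13330 ± 498 (SD) against 19908 ± 627. The log2 fold change was −0.58 (SE 0.06), with an adjusted p of 0.00838 by limma. Leaving out SW480-NC replicate 2 raised the adjusted p to 0.0553, and it stayed under 0.05 when any other library was left out. Antisense and other genes share 5.37% of its exon bases.

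ITGB4 (ENSG00000132470, chr17:75721328-75757818, plus strand) encodes the β4 subunit, whose only known partner is α6 and whose long tail binds plectin at hemidesmosomes. It had 18555, 19548 and 17617 normalized counts in SW480-45 and 28465, 25048 and 25627 in SW480-NC. Again the groups were far apart, at 18573 ± 965 against 26380 ± 1829 (SD). ITGB4 fell by 0.51 on the log2 scale (SE 0.07, adjusted p = 0.0333 by limma). Leaving out any of the 6 libraries moved the adjusted p above the threshold, to between 0.0553 and 0.123.

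ITGA3, the other laminin-binding α subunit tested, read 6896, 7739 and 5604 normalized counts against 6932, 6282 and 7006. The groups overlapped fully. The log2 fold change was −0.01, with an interval of −0.28 to 0.27, and its sign turned in some of the alternative settings. Per kb of exon, ITGA6 made up 74.8% ± 3.66 (SD) of the sum of ITGA3 and ITGA6 in SW480-45 and 81.6% ± 1.32 in SW480-NC. The SW480-45 shares of 73.9%, 71.7% and 78.8% all lay below the SW480-NC shares of 81.2%, 83.0% and 80.5%. A two-sided exact permutation test gave p = 0.1, the smallest that 3 libraries against 3 can give, so the design could not reach 0.05.

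ITGAV (ENSG00000138448, chr2:186590065-186680901, plus strand) encodes αv, the common partner in RGD-binding receptors for vitronectin, osteopontin and latent TGF-β. Its libraries read 5436, 5182 and 5713 normalized counts in SW480-45. In SW480-NC they read 7613, 7706 and 6922. The groups did not overlap, at 5444 ± 266 against 7414 ± 428 (SD), and ITGAV fell by 0.45 on the log2 scale (SE 0.07, adjusted p = 0.0437 by limma). With any single library left out the adjusted p was between 0.0515 and 0.177.

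**Figure D2:**
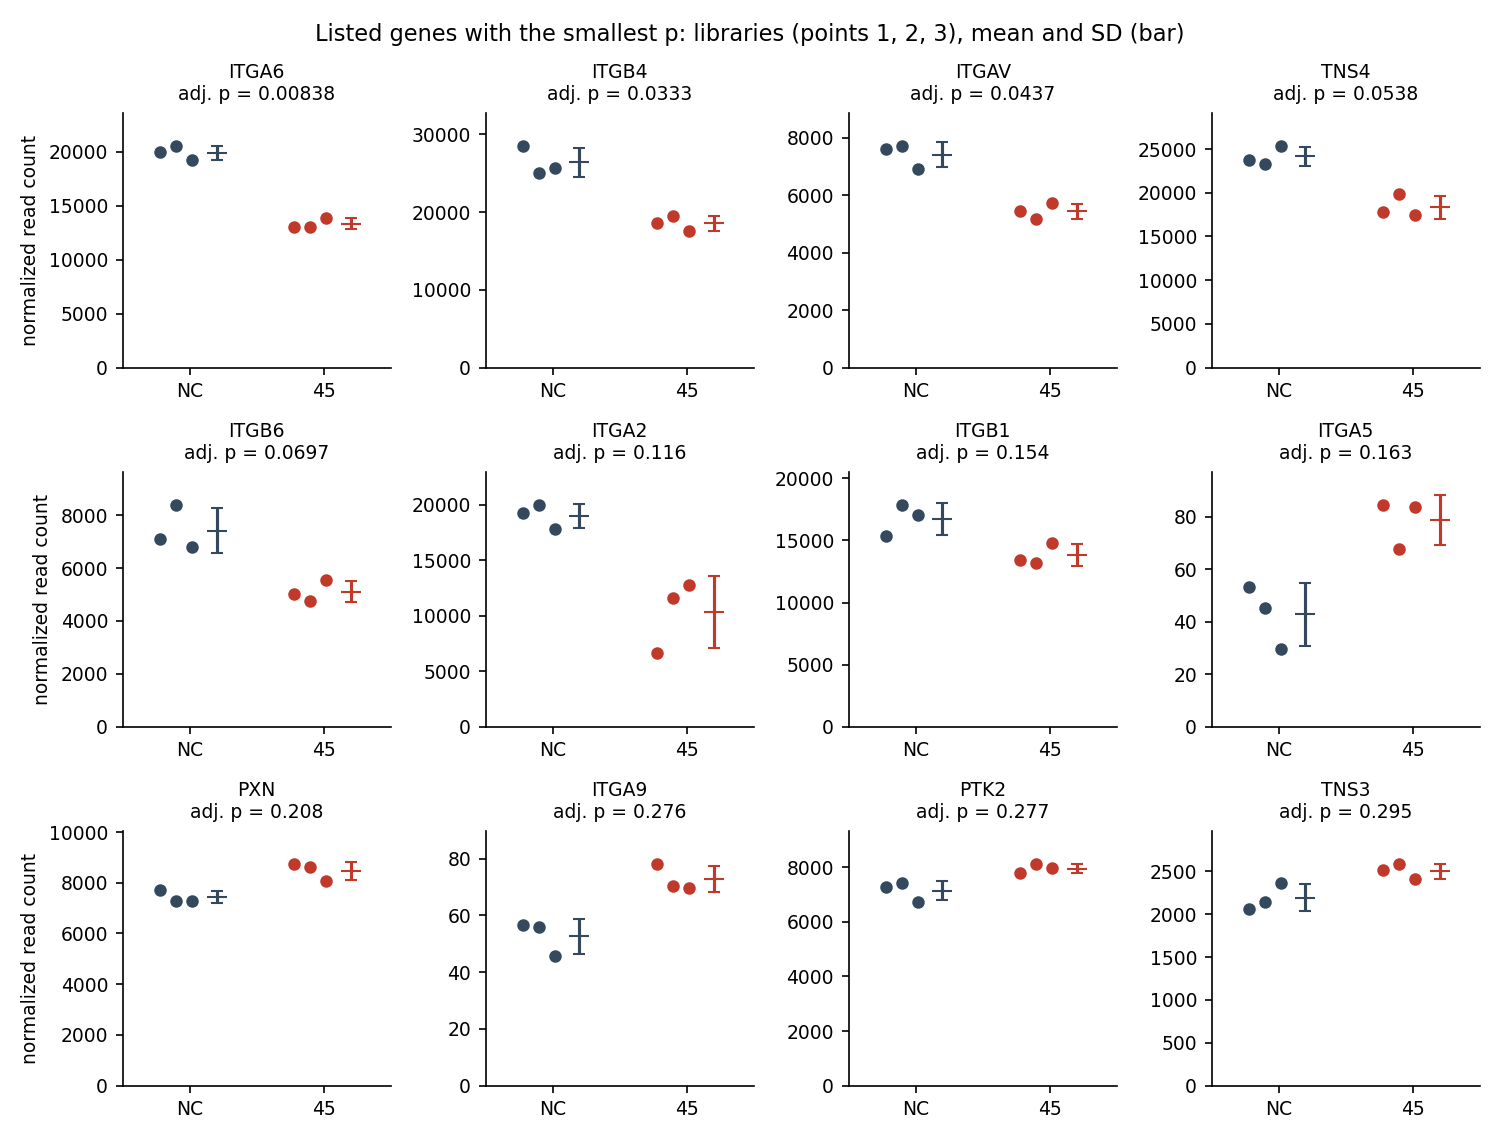
Normalized read count of the 12 listed genes with the smallest p, each point a library (1 to 3 from left to right), with the mean and SD as a cross and bar; axes start at 0. The first 7 panels, ITGA6 to ITGB1, have every SW480-45 point below every SW480-NC point, and the last 5, ITGA5 to TNS3, have them above.

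The sequences just upstream are shown for listed genes with an unadjusted p under 0.01 by limma, so that their base composition can be set side by side. A gene needed a promoter entry of RefSeq (GRCh38.p14) and no annotated transcript of its own reaching into the window. Transcripts of other genes were not checked. Each window runs from −250 to −51 relative to the RefSeq start, 200 bases on the strand of the gene. ITGB4 and TNS4 are named only, and ITGB1 and ITGA5 are left out because an annotated transcript of the same gene overlaps their windows. Capitals mark matches to the motifs searched on both strands, the AP-1 motif TGANTCA, the GC box GGGCGG and the TEAD motif GGAATG. These motifs do not overlap each other.
ITGA6 (chr2:172427086-172427285, plus strand): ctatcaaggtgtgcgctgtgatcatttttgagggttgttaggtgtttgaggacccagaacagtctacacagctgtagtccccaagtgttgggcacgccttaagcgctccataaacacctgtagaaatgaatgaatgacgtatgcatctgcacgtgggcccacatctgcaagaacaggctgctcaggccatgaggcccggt
ITGAV (chr2:186589806-186590005, plus strand): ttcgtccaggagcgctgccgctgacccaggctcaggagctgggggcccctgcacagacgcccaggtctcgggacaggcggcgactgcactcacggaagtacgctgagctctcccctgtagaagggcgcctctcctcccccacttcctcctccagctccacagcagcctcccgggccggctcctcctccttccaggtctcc
ITGB6 (chr2:160200323-160200522, minus strand): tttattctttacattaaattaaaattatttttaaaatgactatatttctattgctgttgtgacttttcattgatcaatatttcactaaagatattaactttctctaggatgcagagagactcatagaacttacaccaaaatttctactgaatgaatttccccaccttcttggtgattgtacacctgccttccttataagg
ITGA2 (chr5:52989102-52989301, plus strand): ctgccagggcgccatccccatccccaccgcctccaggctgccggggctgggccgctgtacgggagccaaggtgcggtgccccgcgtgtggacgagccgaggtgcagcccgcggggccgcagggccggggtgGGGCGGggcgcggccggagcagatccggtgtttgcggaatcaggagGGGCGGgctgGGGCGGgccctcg

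The 4 windows had little in common. ITGA2 was 78.5% G or C and held 3 GC boxes, ITGAV was at 69.0%, ITGA6 at 51.5%, and ITGB6 at 29.5% with no CpG. The median over 35116 windows of the same length was 57.5%. No match to any of the 3 motifs was found in the windows of ITGA6, ITGAV and ITGB6, and no AP-1 or TEAD match in that of ITGA2. Over all windows 5.27% held the AP-1 motif, 35.0% the GC box and 9.71% the TEAD motif. A match is a description of the letters and not of binding.

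Among the αv partners, ITGB6 (chr2:160099666-160200313, minus strand), the epithelial β6 subunit that binds latent TGF-β, read 5021, 4755 and 5537 normalized counts in SW480-45 and 7087, 8375 and 6779 in SW480-NC. All 3 knockdown libraries were below all 3 controls, and the mean was 68.9% of the control. The log2 fold change was −0.54 (SE 0.10), and the adjusted p of 0.0697 by limma missed the threshold. A same-strand gene shares 20.6% of the exon bases of ITGB6, so part of its reads could belong to that gene. ITGB5, the β5 subunit of a vitronectin receptor, read 7063, 8020 and 7686 against 8455, 7678 and 9174, with overlap and a log2 fold change of −0.15 (adjusted p = 0.426 by limma). ITGB8, which also pairs with αv to bind latent TGF-β, was lower expressed, at 1218 ± 70.6 against 1336 ± 122 (SD), with a log2 fold change of −0.13 (adjusted p = 0.549 by limma).

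ITGA5, the α5 subunit of the classical fibronectin receptor, went the other way at a very low level. It had 84.4, 67.7 and 83.8 normalized counts in SW480-45 and 53.3, 45.4 and 29.7 in SW480-NC. Every knockdown library was above every control library. The log2 fold change was 0.90 (SE 0.26), with an interval of 0.30 to 1.49 and an adjusted p of 0.163 by limma. Fewer than 100 reads per library stand behind these values, and the part of counting error in the difference was not tested.

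ITGA2 (chr5:52989326-53094779, plus strand), the α2 subunit of the epithelial collagen receptor, showed the lowest log2 fold change of the 28 genes. It had 6643, 11611 and 12799 normalized counts in SW480-45 and 19219, 19962 and 17856 in SW480-NC. Each knockdown library was below the controls, but replicate 1 lay far under the other two, and the means were 10351 ± 3266 and 19012 ± 1068 (SD). The log2 fold change was −0.93 (SE 0.22, adjusted p = 0.116 by limma), and with a single library left out it ranged from −1.11 to −0.64. ITGA10, another collagen-binding α subunit, had 143, 146 and 124 normalized counts against 135, 184 and 182, with a log2 fold change of −0.26 and an interval from −0.66 to 0.13. ITGA11, the third, had 7 reads in a single SW480-45 library and 11 in a single SW480-NC library and none in the others, so no difference was detectable at this depth.

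ITGB1, the β1 subunit that pairs with α2, α3, α5, α6, α9 and others, had 13461, 13222 and 14802 normalized counts in SW480-45. The controls had 15334, 17839 and 17044. The gap between the groups was narrow, from 14802 to 15334, and the log2 fold change was −0.27 (SE 0.08, adjusted p = 0.154 by limma). ITGA9, a β1 partner that binds tenascin and osteopontin, read 78.0, 70.4 and 69.7 against 56.5, 56.0 and 45.6 without overlap (log2 fold change 0.46, adjusted p = 0.276 by limma). An antisense gene covers part of its exons, and 6.46% of its exon bases are shared with other genes. ITGB7, a subunit known from lymphocytes, had 159 ± 39.5 against 166 ± 28.2 (SD) with full overlap, and 42.1% of its exon bases are shared with a neighbouring gene. ITGA4, its usual partner, had 0 reads in 5 libraries and 4 in SW480-NC replicate 2, where a count of 0 allows up to 3 reads. ITGB2, the β subunit of leukocyte integrins, had 27, 6 and 6 reads in SW480-45 and 3, 0 and 0 in SW480-NC, with most of them in SW480-45 replicate 1.

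Sums and shares here cover only the listed subunits with a row, so ITGB3, ITGA1, ITGA7, ITGA8 and ITGAE are left out. Summed per kb of exon, the β subunits gave 7431 ± 152 normalized counts in SW480-45 and 9702 ± 82.0 (SD) in SW480-NC. The α subunits gave 4741 ± 435 against 7080 ± 250. In both sums the groups did not overlap. The largest parts were the same in the 2 groups. ITGB4 and ITGB1 were the largest β parts, at 37.0% and 30.9% in SW480-45 and 40.2% and 28.7% in SW480-NC. ITGA6 and ITGA2 were the largest α parts. Below them the order of the means differed. ITGB6 was above ITGB5 in SW480-NC, at 16.3% against 13.5%, and below it in SW480-45, at 14.7% against 15.8%. ITGAV was above ITGA3 in SW480-NC, at 12.7% against 9.73%, and slightly below it in SW480-45, at 14.1% against 14.6%. The share of ITGB1 among the β subunits differed by 2.25 percentage points with overlapping libraries (two-sided exact permutation p = 0.3). ITGA6 kept nearly the same share of the α sum, 43.2% ± 3.37 against 43.0% ± 0.328 (SD), while the share of ITGA2 was 27.2% ± 6.52 against 33.9% ± 0.724.

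**Figure D3:**
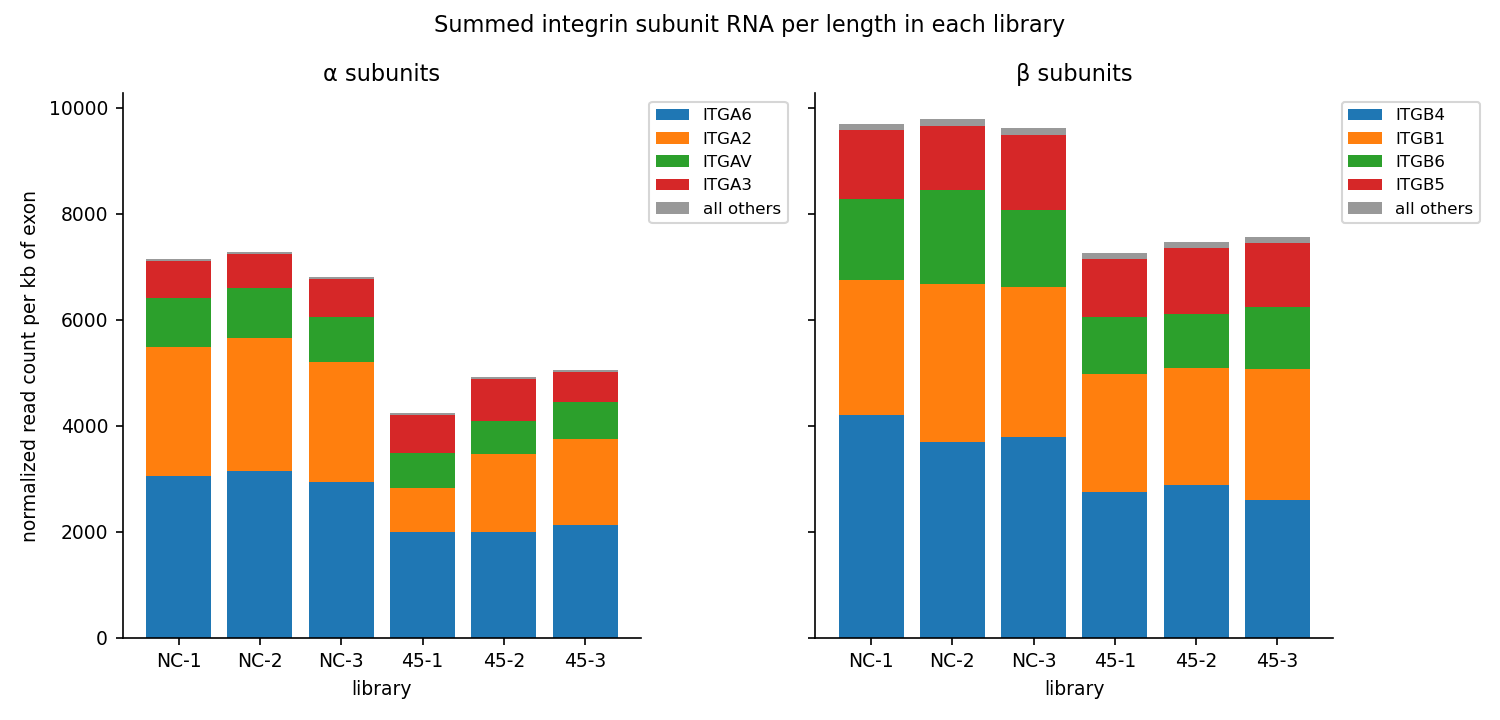
Summed normalized read count per kb of exon of the listed α subunits (left) and β subunits (right) with a row, one stacked bar per library, coloured by gene. The SW480-45 bars are shorter than the SW480-NC bars in both panels, at means of 4741 against 7080 and 7431 against 9702, and SW480-45 replicate 1 has the smallest ITGA2 part.

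In the proteins that bind the β tail no difference passed the test. TLN1, talin, the main activator of integrins, had 12341 ± 750 normalized counts in SW480-45 and 12093 ± 1039 (SD) in SW480-NC, with a log2 fold change of 0.03 and an interval of −0.15 to 0.22. FERMT1, the epithelial kindlin, had 19497, 20171 and 18490 against 20692, 20518 and 20682. Its groups did not overlap, yet the log2 fold change was only −0.09 (adjusted p = 0.444 by limma). FERMT2, the kindlin of mesenchymal cells, had a mean of 89.1 against 83.9 normalized counts, with overlapping libraries (log2 fold change 0.09, SE 0.18, adjusted p = 0.838 by limma). FERMT1 made up 99.7% of the per-kb sum of the 2 kindlins in both groups (two-sided exact permutation p = 0.5).

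Of the tensins, which bind integrin tails and actin, TNS4 and TNS3 were tested and neither passed. TNS4, a short tensin without the actin-binding part, read 17746, 19882 and 17419 normalized counts in SW480-45 and 23787, 23344 and 25323 in SW480-NC. The groups were clear of each other, at 76.0% of the control mean, and the log2 fold change of −0.40 (SE 0.07) had an adjusted p of 0.0538 by limma, just above the threshold. TNS3, a full-length tensin, read 2515, 2584 and 2410 against 2062, 2147 and 2368, all knockdown libraries being higher (log2 fold change 0.19, SE 0.08, adjusted p = 0.295 by limma).

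No signalling protein passed the test. PXN, paxillin, the scaffold of the adhesion, had 8731, 8605 and 8063 normalized counts against 7709, 7286 and 7297. PTK2, focal adhesion kinase, had 7771, 8111 and 7976 against 7259, 7409 and 6738. In both genes the groups did not overlap, but the log2 fold changes were 0.19 and 0.16, with adjusted p of 0.208 and 0.277 by limma. SRC, which phosphorylates both proteins, had a log2 fold change of 0.11 (adjusted p = 0.557 by limma) and overlapping libraries. PTK2B, the relative of focal adhesion kinase also known as PYK2, had 515 ± 59.0 against 559 ± 111 (SD) normalized counts, and its sign turned when a library was left out. The exons of PXN are shared to 12.4% with other genes.

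Of the ILK complex, ILK had 2485 ± 154 against 2379 ± 176 (SD) normalized counts, but 78.5% of its exon bases overlap genes on the other strand, so its value is uncertain without strand. LIMS1, which encodes PINCH, had 1622, 1953 and 1954 against 2379, 2095 and 2059, without overlap, at a log2 fold change of −0.24 (adjusted p = 0.308 by limma). LIMS1 has near-identical copies in the genome, and how reads were split among them is not given in the sources used here.

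Among the actin linkers VCL and LPP varied most within a group. VCL, vinculin, which strengthens the link to actin under force, had 5912, 10927 and 6743 normalized counts in SW480-45 and 12400, 7626 and 12384 in SW480-NC. Replicate 2 of the knockdown lay within the range of the controls and replicate 2 of the controls within that of the knockdown, and the log2 fold change of −0.48 (SE 0.26) had an adjusted p of 0.419 by limma. LPP, a zyxin relative, had 6451, 6470 and 3642 against 6961, 3758 and 3113, and its interval ran from −0.46 to 1.06. ACTN4, an α-actinin that crosslinks actin, had 25684 ± 2530 against 28330 ± 1001 (SD) with a log2 fold change of −0.15 (adjusted p = 0.404 by limma). ZYX, zyxin, which gathers at strained actin fibres, had a log2 fold change of −0.11 (adjusted p = 0.602 by limma). Other genes share 11.1% of the exon bases of VCL and 14.2% of those of ACTN4.

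Levels can be set against each other only per length. TNS4, at 4983 ± 214 (SD) normalized counts per kb of exon in SW480-NC, and ACTN4, at 4646 ± 164, were the highest, with ranges that touched, followed by ITGB4 at 3902 ± 270 and FERMT1 at 3850 ± 18.2, whose libraries overlapped. ITGA6 at 3047 ± 96.0 lay above ITGB1 at 2785 ± 213 with a slight overlap, and ITGA2 at 2404 ± 135 came next, below it in each library. ITGB6, ITGB5, TLN1, ZYX, VCL and PXN followed between 1582 and 996 per kb, and ITGAV was at 903 ± 52.2. FERMT2, ITGA5 and ITGA9 were at the bottom of the 28. In SW480-45 ACTN4, at 4212 ± 415, had the highest mean, above TNS4, at 3786 ± 276, with overlapping libraries, and ITGB4, at 2747 ± 143, lay below FERMT1, at 3617 ± 158, in each library. The lengths are those of all annotated exons of a gene together, so a gene with long rare exons appears lower.

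**Figure D4:**
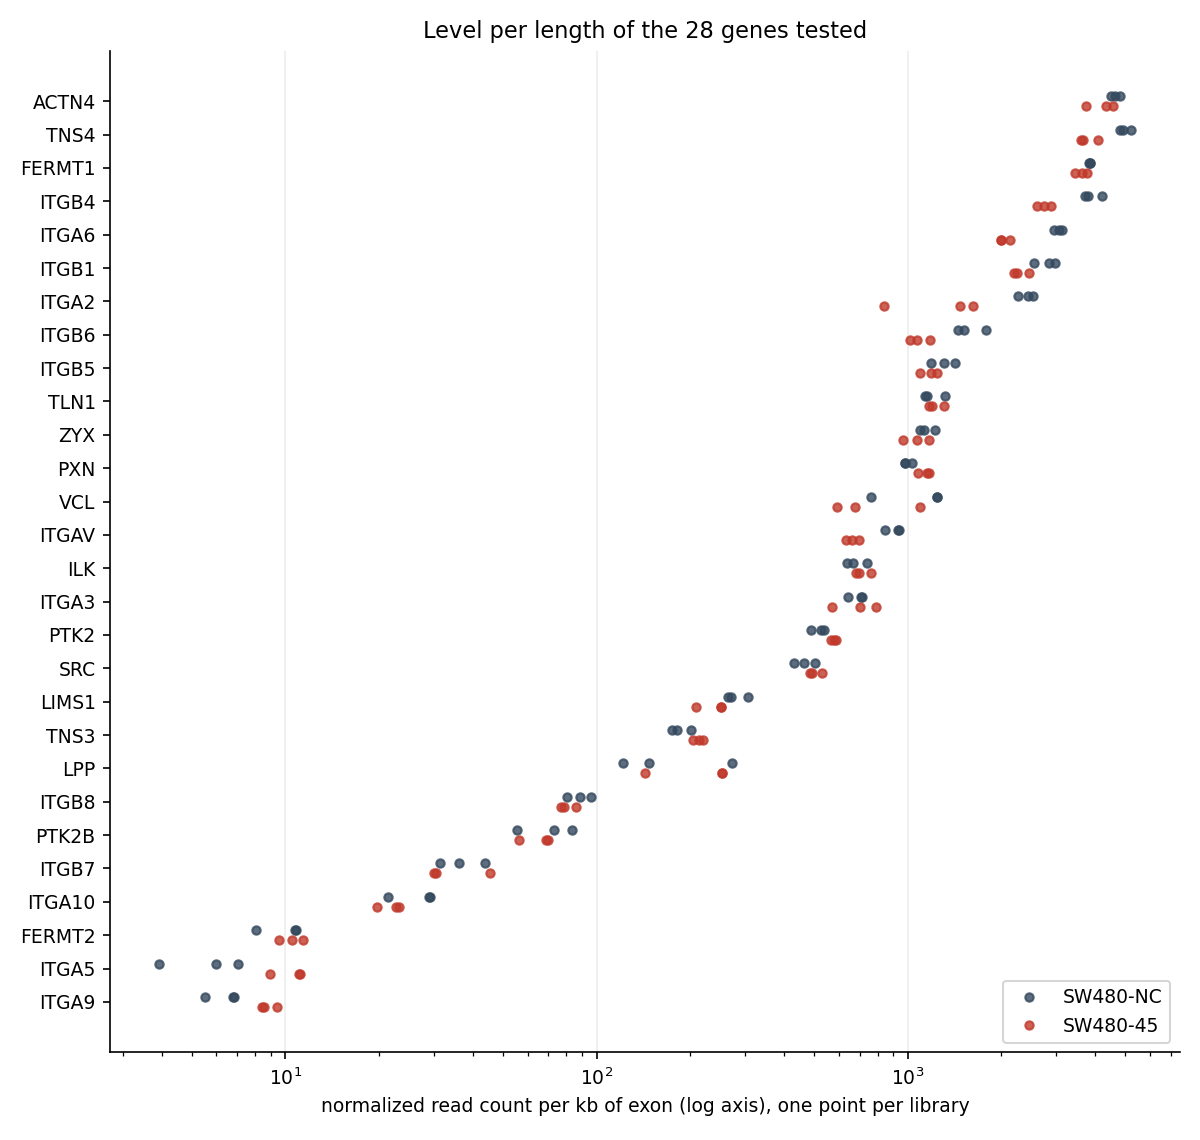
Normalized read count per kb of exon (log axis) of the 28 genes tested, ordered by mean, each point a library (dark: SW480-NC, red: SW480-45). Levels span from 3.92 in an SW480-NC library of ITGA5 to 5224 in one of TNS4, and red points lie left of the dark ones without overlap for, among others, ITGB4, ITGA6, ITGB1, ITGA2, ITGB6, ITGAV and TNS4.

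The matrix ligands of integrins were examined as a list of 37 genes, of which 19 were tested, and 3 of them fell, where 0.470% of all features passed in that direction. LAMA3, the α3 chain of the laminin of epithelial basement membranes, had 2705, 2846 and 2871 normalized counts in SW480-45 and 4378, 4630 and 4770 in SW480-NC. COL17A1, a transmembrane collagen of hemidesmosomes, had 2306, 2394 and 2383 against 3195, 3460 and 3413. SPP1, which encodes the RGD protein osteopontin, had 648, 623 and 710 against 1315, 1045 and 1359. None of the 3 genes overlapped between groups, and their log2 fold changes were −0.71 (SE 0.07), −0.51 (SE 0.07) and −0.90 (SE 0.12), with adjusted p of 0.00838, 0.0333 and 0.0333 by limma. With a library left out LAMA3 lost its call only without SW480-NC replicate 2 (adjusted p = 0.0543), SPP1 passed only without that library (0.0367) and reached up to 0.119 in the other 5 fits, and COL17A1 was always above the threshold, from 0.0595 to 0.134. The change of COL17A1 was known from earlier results on these data when the list was made.

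At an unadjusted p under 0.05, 5 of the 19 ligand genes were lower and 4 higher, where 8.15% and 8.10% of all features were, and the median log2 fold change of the list was −0.11. LAMB3, the β chain of the same laminin, had 2686, 2678 and 2352 normalized counts against 3177, 3381 and 3181 without overlap (log2 fold change −0.34, adjusted p = 0.116 by limma). LAMB2, the β chain of another laminin, had 1353, 1365 and 1203 against 982, 873 and 1036, above the controls in each library (log2 fold change 0.44, adjusted p = 0.108 by limma). THBS1, thrombospondin, a matrix protein bound by several integrins, had 1483, 1572 and 1505 against 1813, 1863 and 2070 without overlap (log2 fold change −0.33, adjusted p = 0.128 by limma). These 3 genes come next by p after the 3 called and were added after their values were seen.

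Of 82 other genes of integrin adhesions 63 were tested and 1 passed, in the lower direction, where 0.470% of all features did. CAV1, caveolin, the scaffold of caveolae that binds integrins at the membrane, had 1232, 1034 and 1120 normalized counts in SW480-45 and 2856, 2966 and 2849 in SW480-NC. The groups were wide apart, at 39.0% of the control mean, and CAV1 fell by 1.36 on the log2 scale (SE 0.09, adjusted p = 0.00252 by limma), a change that was known from earlier results on these data when the list was made. Its call held in each of the 6 fits with a library left out. The next smallest p were those of GRB7, an adaptor that binds focal adhesion kinase, at a log2 fold change of 0.37 (adjusted p = 0.130 by limma), and of CDC42, a GTPase of filopodia, at −0.22 (adjusted p = 0.137 by limma). At an unadjusted p under 0.05, 6 of the 63 were lower and 6 higher, near the 8.15% and 8.10% of all features tested, and their median log2 fold change was −0.04.

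Which listed genes passed differed between settings and tools, as the plot of adjusted p by setting shows. With edgeR on the recovered reads ITGA6 and ITGB4 passed, both of them lower, where 0.355% of all features passed in that direction. With DESeq2 ITGA6, ITGB4, ITGAV, ITGB6, TNS4 and ITGA2 passed, all of them lower, where 1.65% of all features passed in that direction. Without the intensity trend no listed gene passed by limma, where 11 of the 21703 features did. The direction was the same in all 16 alternatives for 23 of the 28 genes, and the other 5 were ITGA3, ITGB7, TLN1, FERMT2 and PTK2B. No filter, a mean of at least 50, no trend, Ensembl features only and the replicate block left the fold change unchanged. These settings could not turn a direction.

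**Figure D5:**
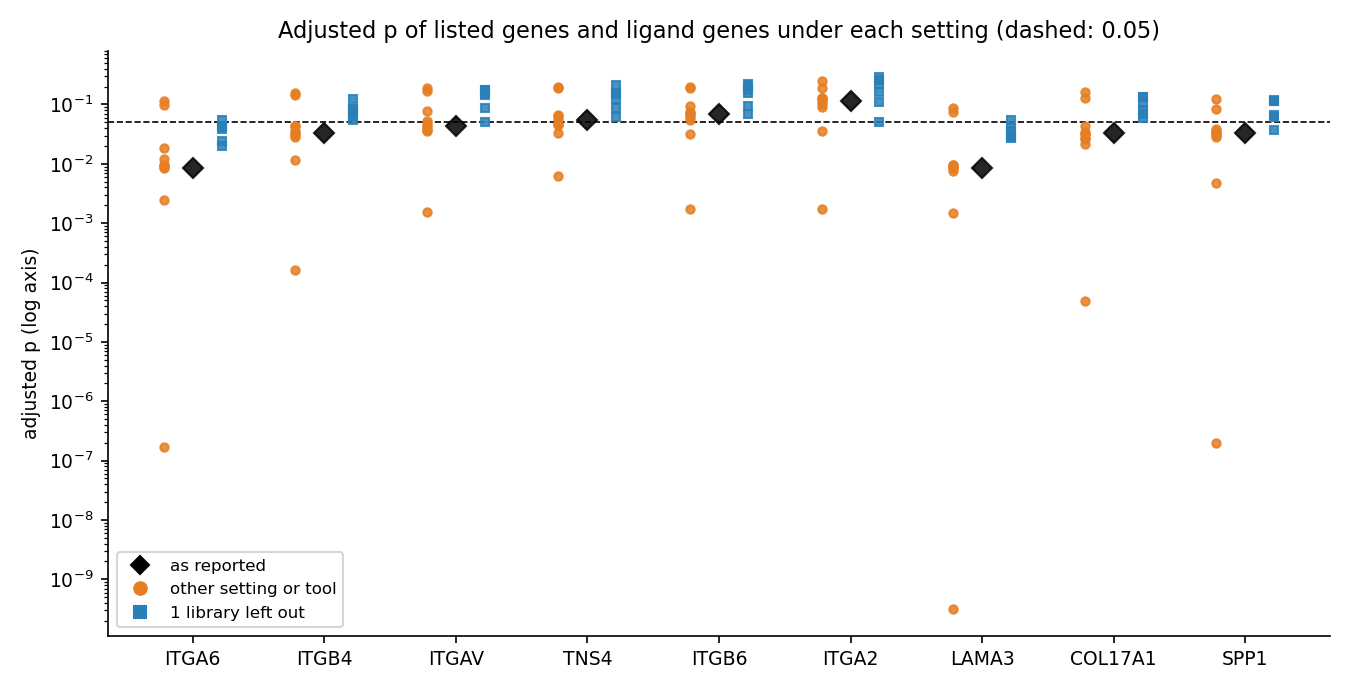
Adjusted p (log axis) of ITGA6, ITGB4, ITGAV, TNS4, ITGB6 and ITGA2 and of the ligand genes LAMA3, COL17A1 and SPP1, as reported (black diamonds), under other settings and tools (orange circles) and with a library left out (blue squares); the dashed line is 0.05. The blue squares of ITGB4 and ITGAV all lie above the line, while 5 of the 6 squares of ITGA6 lie below it.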

How the data were processed

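RNA was measured in 3 libraries each of SW480-45 and SW480-NC cells. The library kit does not mark strand, and per the labels used bcl2fastq, HISAT2 and DESeq2 with GRCh38, versions not given in the sources used here; the study's methods name Cuffdiff. The deposited unit is a signal, read counts that the authors scaled by a factor for each library (normalized counts). Dividing by the step between values gave whole reads for 100% of values (tolerance 0.01), 33221323 to 39802365 per library; 74.8% to 75.3% of them lay in Ensembl rows. A count of 0 allows up to 3 reads, for counting error only.

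Differences were tested with limma 3.58.1 (intensity trend) in R 4.3.3 on log2(normalized count + 1), over the 21703 features whose mean reached 10, two-sided, with Benjamini-Hochberg adjustment over all of them; on this log2(value + 1) scale the change of low genes is understated. Alternatives were a pseudocount of 5, no filter, a mean of at least 50, TMM, quantile normalization, no trend, Ensembl features only, a replicate block, each library left out, edgeR 4.0.16 and DESeq2 1.42.0 on the recovered reads. Within-library shares used exact permutation tests. On simulated data, with changes larger than that of any listed gene, the tests recovered most changed features. They made more false calls than the nominal rate, most of all with DESeq2. Recovery of changes as small as those of the listed genes was not tested.

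Coordinates, exon lengths and overlaps are from GENCODE 29 (GRCh38), promoter sequences from RefSeq (GRCh38.p14). The named genes are HPSE, every listed gene (the 12 with the smallest p in full), and from the 2 further lists those called plus the 3 with the smallest p, with LAMB2, LAMB3 and THBS1 added later. The members and lists were chosen with earlier results of these data known. Plots were made in matplotlib 3.10.9 (Python 3.11.15).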

Additional observations from a re-analysis of the deposited data

How the results depend on the processing

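HPSE passed with no filter on low values (log2 fold change −0.83, adjusted p = 0.0451), with a mean of at least 50 (−0.83, 0.0460), over Ensembl features only (−0.83, 0.0462) and with DESeq2 (−0.83, 0.000948). Of the listed genes 3 passed as reported, 6 with no filter and 6 with DESeq2. With no intensity trend and with the replicate block 0 passed, and with a library left out 0 to 1. Of the ligand genes 3 passed as reported and 5 with DESeq2. With no intensity trend and with the replicate block 0 passed, and 1 in each fit with a library left out. Of the other adhesion genes 1 passed as reported and 2 with DESeq2. Over all features the calls were 174 of 21703 as reported and 232 of 59192 with no filter. They were 11 with no intensity trend, 12 with the replicate block, 756 with DESeq2 and 36 to 104 with a library left out. No pairing by replicate number was seen: the deviations of same-numbered libraries correlated at 0.00246, −0.0202 and 0.00741. With 3 libraries in a group this cannot show that the experiments were unpaired. None of the 208 values of the 13 genes with an unadjusted p under 0.05 changed sign. Most of this was fixed in advance. The 13 genes were chosen by p in the same data and had no overlap between groups, so leaving out a library could not change a sign. Settings that changed only the filter, the trend or the block left the fold change as it was. Where calls were lost or gained, the cause was not tested, except that leaving out a library leaves fewer samples. With 3 libraries against 3 a small difference such as that of PXN or PTK2 may be missed, and the depth of ITGA5, ITGA9, FERMT2 and ITGB2 was low.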
